A study of Mus musculus with 10 samples.

Results

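The genes described here are 39 components of the S phase replication machinery other than the MCM helicase: origin recognition subunits, helicase cofactors, DNA polymerases and primase, the sliding clamp and its loaders, the single-strand DNA binding proteins, the enzymes that finish the lagging strand, nucleotide supply, replication-coupled chromatin assembly and fork protection. They are a list of symbols from the known replication pathway. No measured value enters the rule, but the list was chosen with earlier results of these data known. All 39 are among the 23235 gene symbols of each deposited table. Their mRNA was read by sequencing in sorted cells of the embryonic mouse cortex. Radial glia had been electroporated in utero on embryonic day 13 with GFP and either a control shRNA or one that targets Chd8, an ATP-dependent chromatin remodeler, and GFP-positive cells were sorted on embryonic day 15. Each library came from pooled cortices of 3 to 5 embryos. The new set has 3 control and 3 Chd8 knockdown libraries (replicates 10, 11 and 12), and the first set has 2 control and 2 Chd8 knockdown libraries (replicates 1 and 2). The library labels do not name the shRNA. The sets are matched here to Chd8 sh1 (new) and Chd8 sh2 (first) by the names under which their values were deposited. The number of replicates the design text gives for each was used as well. Both groups of a set received a plasmid and both were sorted for GFP, so the groups differ in the shRNA. The sources used here do not give the strain, the sex of the embryos or the promoter that drives the shRNA. Between the sets the shRNA, the batch and the deposited table all change at once, so their parts cannot be told apart.

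As background, a cell copies its genome in S phase from origins that were licensed in G1. The MCM complex joins Cdc45 and the GINS complex to form the active helicase, primase and DNA polymerase alpha lay down primers, polymerases delta and epsilon extend them on the PCNA clamp, and Fen1 and Lig1 join the lagging strand fragments. Most of these genes are transcribed as cells enter S phase, many through E2F factors, so their mRNA is a widely used sign of cycling cells. In the embryonic cortex the cycling cells are radial glia and intermediate progenitors, while the neurons they produce leave the cycle.

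Chd8 itself was at 3.30 to 4.02 FPKM in the 3 new-set controls and at 1.84 to 2.09 FPKM in the knockdown libraries, or 53.6% of control (limma adjusted p = 0.0213). Chd8 in the first set was at 12.4 and 13.8 FPKM in controls and at 8.55 and 9.23 FPKM in knockdown libraries, or 68.0% of control, a difference that did not pass (adjusted p = 0.152). FPKM are fragments scaled by transcript length and by library size, and the absolute depth behind them is unknown. Relative depth in the new set, read from the smallest values, was 0.957 to 1.39 with control replicate 10 as 1. In the first set, with control replicate 1 as 1, it was 1.22 for control replicate 2 and 0.527 and 0.528 for the knockdown libraries. This estimate is the most common ratio of small values. It was not sharp for first-set knockdown replicate 2, with 81 of 1351 genes in its bin against 69 in the 3rd fullest bin. Both first-set knockdown libraries stood apart from their controls. In them 80.9% and 78.9% of all genes were above 0.1 FPKM, against 58.8% to 61.6% in the other 8 libraries. The 1096 olfactory receptor genes, which are not expected in cortex, averaged 0.672 and 0.557 FPKM in those 2 libraries and at most 0.00817 FPKM elsewhere. The first-set values below carry that background in the knockdown group, and its part in the results was not tested beyond the subtraction described under the first set.

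All 39 replication genes had a mean of at least 1 FPKM in both tables and entered the fits of both sets. Per transcript length, their levels in new-set controls ran from 2.05 ± 0.156 FPKM (SD, n = 3) for Clspn, an adaptor of the replication checkpoint, to 189 ± 22.2 FPKM for Pcna, the sliding clamp, with a median of 29.0 FPKM. Rrm2, the regulated subunit of ribonucleotide reductase, followed at 149 ± 14.8 FPKM and Rpa3, the smallest RPA subunit, at 147 ± 26.2 FPKM. The control values of Rrm2 and Rpa3 overlapped, and levels were not tested between genes. Slbp, which binds the stem-loop of histone mRNA, came next at 96.3 ± 7.35 FPKM. Orc1, Pole and Pola1 lay near the bottom with Clspn, at 2.15 ± 0.242, 2.67 ± 0.879 and 4.33 ± 0.660 FPKM. In first-set controls the same 3 genes led, with Rrm2 at 247 ± 113 FPKM (n = 2), Rpa3 at 229 ± 16.7 FPKM and Pcna at 225 ± 0.584 FPKM, and Orc1 was lowest at 2.14 ± 0.413 FPKM. The levels therefore spanned about the same range in both tables, although no level was tested across them.

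**Figure D1:**
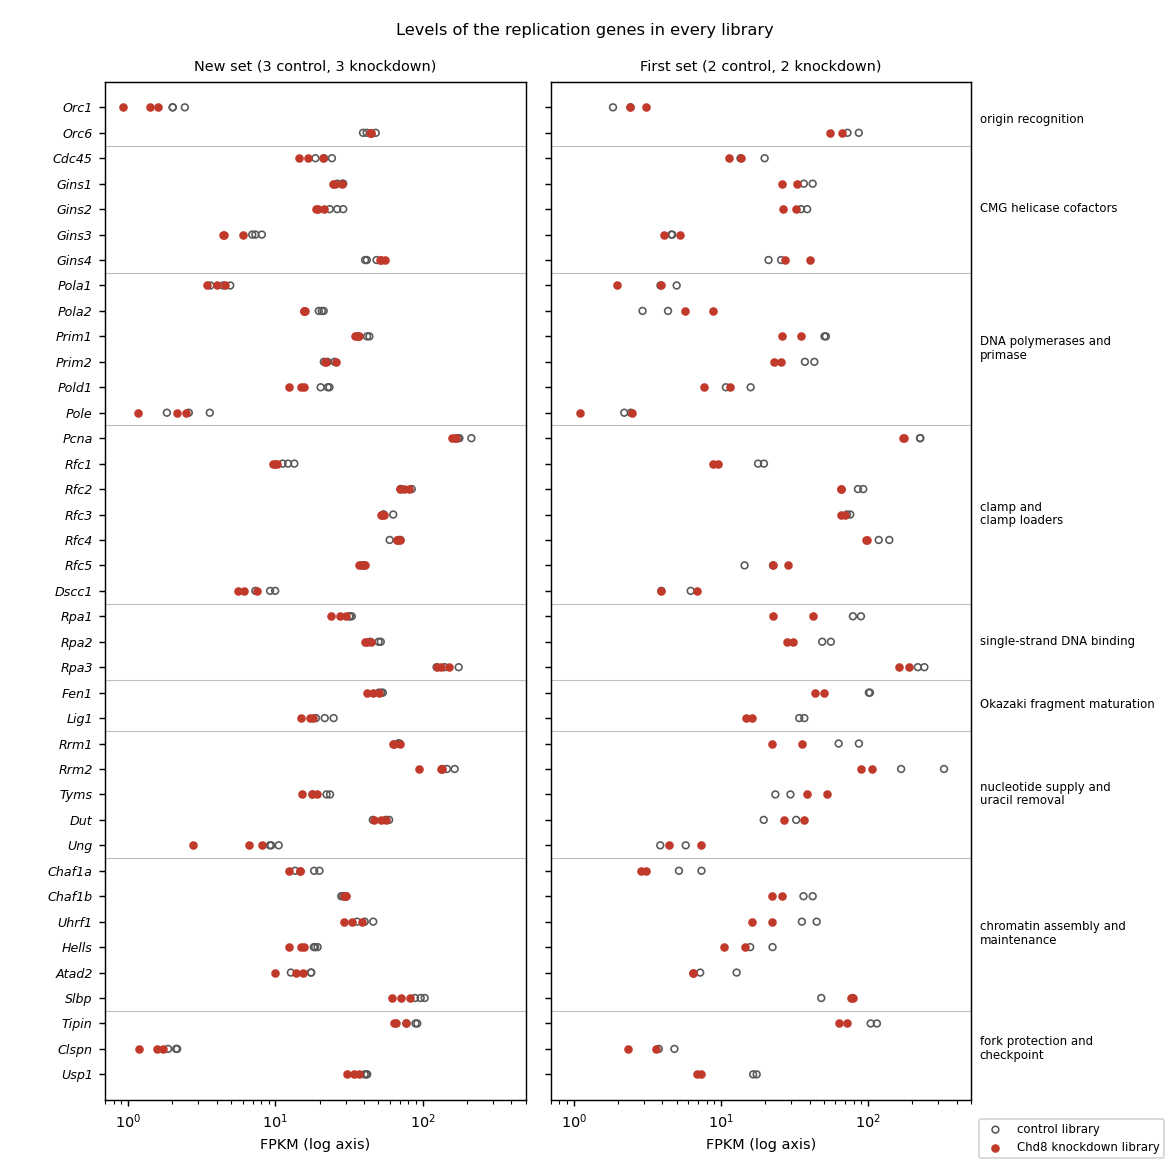
Level of each of the 39 replication genes in FPKM (log axis), grouped by role, in the new set (left) and the first set (right). Open circles are control libraries and filled circles are Chd8 knockdown libraries. In the new-set controls the mean levels run from 2.05 FPKM for Clspn to 189 FPKM for Pcna.

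Promoter sequence was examined because many of these genes are known to be bound by E2F factors at their start sites. RefSeq windows (build GRCm38.p6, 250 bases before to 50 bases after a start) were found for 29 of the 39 genes, in 33 windows. The motif letters TTTCCCGC, TTTGGCGC, TTTCGCGC and TTTGCCGC, searched on both strands as forms of the E2F site, occurred in 9 of the 29 genes (31.0%) against 2.6% of the 27025 genes in the table. The 9 genes are Orc1, Gins3, Pola1, Pold1, Rfc3, Lig1, Uhrf1, Hells and Clspn. By window the share was 27.3% for the replication genes, 2.26% for all 32851 windows and 3.08% for the 17837 windows of like base composition (49.0% to 69.3% G and C). CCAAT was in 57.6% of the replication gene windows and 37.4% of all windows, GGGCGG in 72.7% and 35.7%, and the CHR letters TTTGAA or TTCGAA, typical of genes of G2 and mitosis, in 12.1% and 19.2%. In the windows of like base composition the shares were 37.7% for CCAAT, 45.7% for GGGCGG, and 2493 of the 17837 held CHR letters. None of the 10 E2F matches overlapped a match of another motif. The stretches that hold a match ahead of the start are shown for 6 genes, each ending at the last base before the start and written on the gene's strand, with the E2F letters or their reverse complement in capitals. Orc1 is shown from chr4:108579354-108579453 (plus strand), Gins3 from chr8:95633459-95633558 (plus), Rfc3 from chr5:151651209-151651308 (minus), Hells from chr19:38930890-38930989 (plus), Pola1 from chrX:93632156-93632335 (minus) and Uhrf1 from chr17:56304093-56304312 (plus).
Orc1: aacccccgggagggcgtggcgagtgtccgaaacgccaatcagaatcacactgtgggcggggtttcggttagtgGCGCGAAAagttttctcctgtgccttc
Gins3: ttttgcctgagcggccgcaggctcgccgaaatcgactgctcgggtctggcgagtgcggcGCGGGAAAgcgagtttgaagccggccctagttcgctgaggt
Rfc3: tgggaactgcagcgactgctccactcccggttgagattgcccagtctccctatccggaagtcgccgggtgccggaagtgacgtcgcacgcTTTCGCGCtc
Hells: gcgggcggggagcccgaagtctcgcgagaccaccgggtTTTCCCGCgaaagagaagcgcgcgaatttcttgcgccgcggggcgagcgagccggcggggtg
Pola1: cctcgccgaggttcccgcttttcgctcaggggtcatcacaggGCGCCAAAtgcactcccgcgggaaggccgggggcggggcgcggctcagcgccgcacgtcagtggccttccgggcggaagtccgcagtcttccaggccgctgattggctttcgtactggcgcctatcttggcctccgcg
Uhrf1: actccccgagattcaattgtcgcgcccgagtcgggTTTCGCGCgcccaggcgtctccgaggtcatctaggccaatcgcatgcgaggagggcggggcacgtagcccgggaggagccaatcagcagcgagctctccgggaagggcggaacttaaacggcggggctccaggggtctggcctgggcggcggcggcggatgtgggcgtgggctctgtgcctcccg

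The match began 27 bases before the start in Orc1, 41 in Gins3, 10 in Rfc3, 62 in Hells, 138 in Pola1 and 185 in Uhrf1. A match is a run of letters and not a measured binding site. The 9 genes with a match had a median log2 fold change of -0.355 (new set) and -0.438 (first set), the 20 genes with windows but no match had medians of -0.196 and -0.389, and the 10 genes without a window had medians of -0.276 and -0.423. These medians are a description, and the difference between them was not tested.

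The main comparison asks whether the replication genes were lower or higher in Chd8 knockdown than in control cells of the same table. Fold changes are differences of log2(FPKM + 1) within a table, and genes were called by limma at an adjusted p (Benjamini-Hochberg over all genes tested) under 0.05. In the new set 34 of the 39 genes had a lower mean in knockdown, with a median log2 fold change of -0.27 against 0.02 over all 11291 genes tested. Past an adjusted p of 0.05, 2 genes of the polymerase group fell, Pold1 and Pola2, and none rose. Those 2 of 39 are a share near the 5.15% of all tested genes that fell in the same fit, where 3.84% rose. At an unadjusted p under 0.05 there were 15 genes, all with a lower mean except Gins4, where 3389 of the 11291 tested genes were under it. In an alternative fit with the replicate number as a block, 11 of the 39 genes passed. Of these Dscc1, Gins2, Gins3, Hells, Lig1, Pola2, Pold1, Slbp, Tipin and Usp1 fell, and Gins4 rose. What a replicate number stands for is not known. In that fit 10.7% of all tested genes fell and 11% rose. The knockdown values of 15 genes lay below every control value, where 17.1% of all tested genes did, and those of 1 gene (Gins4) lay above, where 18.6% did. Both new-set calls rest on all of the libraries but control replicate 11: leaving out any one of the other 5 left no replication gene past the threshold. In the same 5 fits the share of all tested genes that fell dropped from 5.15% to between 0.584% and 1.6%, and the median of the replication genes stayed at -0.29 to -0.17.

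One library took a large part of the new-set shift. Knockdown replicate 11 was the lowest of the 6 libraries for 27 of the 39 genes, and its median difference from the control mean was -0.37 on the log2 scale, against -0.14 and -0.17 for knockdown replicates 10 and 12. Without it the median over the replication genes was -0.17. The summed FPKM of the 39 genes was 1572, 1786 and 1699 in the 3 controls and 1532, 1387 and 1549 in knockdown replicates 10, 11 and 12, so each knockdown library was below each control. The same library also had the highest summed level of the postmitotic neuron markers (4824 FPKM) and the lowest of the G2/M and mitosis genes (1614 FPKM), and the part of either in the result was not tested.

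In the first set 29 of the 39 genes had a lower mean in knockdown, with a median log2 fold change of -0.42 against -0.15 over the 12461 genes tested. The gap between the medians, -0.278, was -0.144 with a minimum mean of 5 FPKM, where the median over all genes was -0.291, and -0.544 without a filter on low values. Past an adjusted p of 0.05, 10 fell (Fen1, Lig1, Rfc1, Rpa1, Rpa2, Rrm1, Rrm2, Tipin, Uhrf1 and Usp1) and none rose, where 10.7% of all tested genes fell and 13.2% rose. At an unadjusted p under 0.05 there were 16 genes, of which Pola2 and Tyms had the higher mean in knockdown. Of the 12461 tested genes 4884 were under it, a share near that of the replication genes. The knockdown values of 25 genes lay below both controls and those of 4 genes (Gins4, Pola2, Rfc5 and Tyms) above both, against 40.4% and 27.4% of all tested genes. After the mean olfactory receptor level of each library was subtracted from its values, 13 replication genes fell and none rose, while the share of all tested genes that fell went from 10.7% to 14.3%. Leaving out any one of the 4 libraries left at most 2 replication genes past the threshold. In those fits, where one group is a single library, 0.516% to 2.12% of all tested genes fell, and the median of the replication genes was -0.57 to -0.31.

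The scale of the libraries bears on both sets. Small RNA genes took 6.52% to 68.2% of the FPKM of a library, and rescaling each library to a common total of all other genes moved the median of all genes from 0.02 to -0.10 in the new set and from -0.15 to 0.03 in the first set. Relative to all genes the replication genes moved little: their median minus that of all genes was -0.29 in the new set before and -0.295 after, and -0.278 before and -0.274 after in the first set. The calls moved with the scale. On the common total 9 genes fell in the new set (Gins2, Gins3, Hells, Pcna, Pola2, Pold1, Rpa2, Slbp and Tipin), where 8.16% of all tested genes fell and 1.9% rose. Of the first set 4 fell (Fen1, Lig1, Rrm1 and Usp1) and Tyms rose, where 2.96% of all genes fell and 14.5% rose. On that scale Chaf1b, Orc6, Prim2 and Rfc4 changed the sign of their new-set mean and Rfc3 that of its first-set mean.

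**Figure D2:**
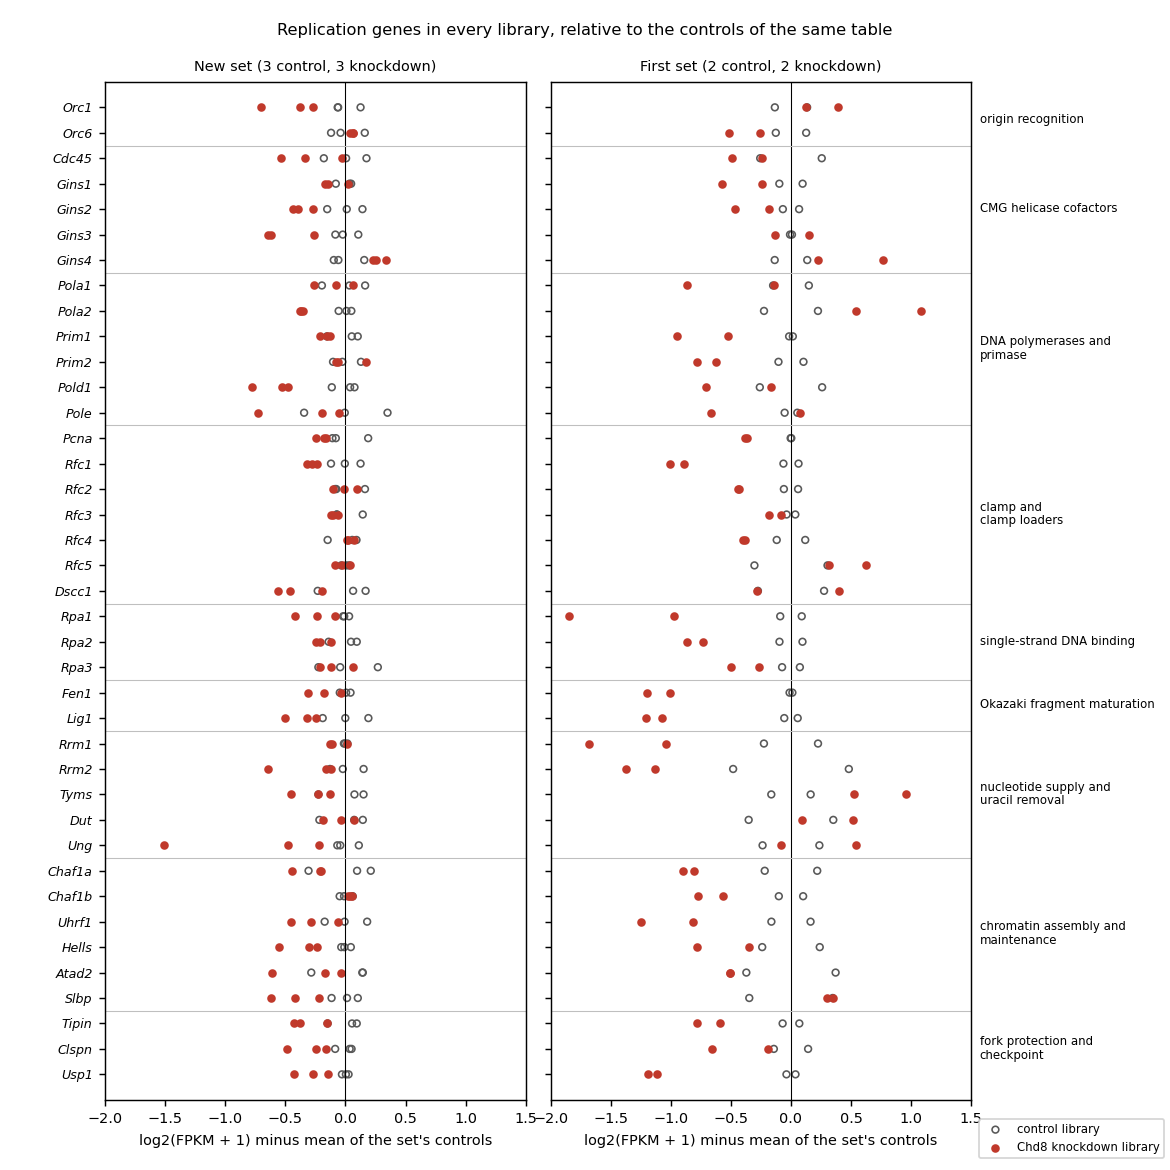
Each library's log2(FPKM + 1) minus the mean of the controls of its set, for the 39 replication genes grouped by role. Open circles are controls and filled circles are knockdown libraries. Most knockdown points lie left of 0 in both panels, with 34 lower means on the left and 29 on the right, and Gins4 lies right of every control in both.

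Both sets were then joined in one fit with 1 fold change per set, and the mean of both fold changes was tested. In this fit 18 replication genes fell and 1 rose (Gins4), where 20.5% of all 10827 genes tested fell and 9.37% rose. On simulated data, in which fewer genes changed than were called here, this fit made more false calls than its threshold states. The joined adjusted p values here and below are therefore treated as too small. The median over the 39 genes was -0.32 against -0.11 over all genes tested. The groups did not overlap in either set, with knockdown lower, for 9 genes (Clspn, Gins2, Hells, Lig1, Pcna, Rfc1, Rpa1, Tipin and Usp1), against 7.6% of all genes. With knockdown higher in both sets there was 1, Gins4, against 3.57%. Of the 19 calls 12 held in every alternative run: Chaf1a, Fen1, Lig1, Prim1, Rfc1, Rpa1, Rpa2, Rrm1, Rrm2, Tipin, Uhrf1 and Usp1. When the z values of both sets were combined in place of the shared variance, an alternative chosen after seeing the data that made fewer false calls in simulation but still more than the threshold states, 15 genes fell and Gins4 rose, where 8.44% of all genes fell and 4.53% rose, and Chaf1b, Pcna and Prim2 no longer passed. With the replicate block Atad2, Clspn, Gins1 and Rfc2 were added as lower and no call was lost, where 23.2% of all genes fell. These are bulk samples, so fewer cells in S phase and less of these mRNAs per cell cannot be told apart.

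The origin recognition subunits Orc1 and Orc6, which mark origins before licensing, passed in no fit of knockdown against control. Orc1, which carries an E2F match just ahead of its start, was at 2.003, 2.01 and 2.43 FPKM in new-set controls (replicates 10, 11 and 12 here and in each triplet below) and at 1.60, 0.927 and 1.41 FPKM in knockdown. All 3 knockdown values were below the controls (log2 fold change -0.45 ± 0.15 SE, adjusted p = 0.0891), while in the first set it was at 129% of control with overlapping groups. Orc6 was at 103% of control in the new set and at 76.2% in the first set.

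Among the helicase cofactors Gins2 fell and Gins4 rose in the joined fit, although both are subunits of the same GINS complex, which holds Cdc45 and the MCM ring together. Gins2 was at 23.4, 28.9 and 26.3 FPKM in new-set controls and at 19.6, 19.0 and 21.4 FPKM in knockdown. Gins2 in the first set was at 38.5 and 35.0 FPKM in controls (replicates 1 and 2 here and below) and at 26.4 and 32.2 FPKM in knockdown. Every knockdown library was below every control of its set, and the joined log2 fold change was -0.35 ± 0.10 (adjusted p = 0.0222). Gins4 was at 40.7, 48.7 and 41.8 FPKM in new-set controls and at 52.2, 55.2 and 51.3 FPKM in knockdown. Gins4 in the first set was at 25.6 and 21.1 FPKM in controls and at 40.4 and 27.3 FPKM in knockdown. It was the only one of the 39 genes above all controls in both sets, with a joined log2 fold change of 0.39 ± 0.12 (adjusted p = 0.0292). The Gins4 call was lost when any one of the 5 new-set libraries other than control replicate 11 was left out, and also without control replicate 2 or knockdown replicate 1 of the first set (adjusted p up to 0.101). With the replicate block both passed in the new set alone, Gins2 lower (adjusted p = 0.0373) and Gins4 higher (adjusted p = 0.0358).

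Gins3, also with an E2F match, was at 7.31, 6.96 and 8.09 FPKM in new-set controls and at 6.02, 4.48 and 4.40 FPKM in knockdown, or 66.6% of control without overlap (adjusted p = 0.0530, and 0.0369 with the replicate block). Gins3 values in the first set were 4.61 and 4.67 FPKM in controls and 4.14 and 5.26 FPKM in knockdown, or 101% of control. Gins1 and Cdc45, the helicase activator, had lower means in both sets, at 93.2% and 80.8% of control in the new set and at 75.0% and 75.2% in the first set. Gins1 had a joined adjusted p of 0.0684, and 0.0389 with the replicate block, and Cdc45 had 0.0914 and 0.0891.

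The polymerase group holds both new-set calls. Pold1, the catalytic subunit of polymerase delta, which copies the lagging strand, was at 22.7, 20.3 and 23.3 FPKM in new-set controls and at 15.6, 12.4 and 14.97 FPKM in knockdown. The groups did not overlap, knockdown was at 64.9% of control, and the log2 fold change was -0.59 ± 0.11 (adjusted p = 0.0227). Pold1 in the first set was at 15.9 and 10.8 FPKM in controls and at 7.63 and 11.6 FPKM in knockdown, which overlap, and the joined call (-0.52 ± 0.14, adjusted p = 0.0188) was lost without control replicate 1 or knockdown replicate 1 of that set (adjusted p up to 0.0711). Pola2, the accessory subunit of polymerase alpha, was at 21.3, 20.7 and 19.7 FPKM in new-set controls and at 15.9, 15.6 and 15.6 FPKM in knockdown. It fell by 0.37 ± 0.08 on the log2 scale there (adjusted p = 0.0352). Pola2 had the opposite order in the first set, with 4.38 and 2.94 FPKM in controls and 8.77 and 5.69 FPKM in knockdown, or 198% of control (adjusted p = 0.0940).

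Both primase subunits fell in the joined fit, and neither passed in a single set (first-set adjusted p = 0.0535 for Prim1 and 0.0509 for Prim2). Prim1, the catalytic subunit that makes RNA primers, was at 51.6 and 50.5 FPKM in first-set controls and at 26.0 and 35.1 FPKM in knockdown, while in the new set it was at 36.2, 43.5 and 42.0 FPKM in controls and at 36.2, 34.7 and 36.9 FPKM in knockdown. Its joined log2 fold change was -0.45 ± 0.10 (adjusted p = 0.00767). Prim2, the regulatory subunit, was at 43.1 and 37.2 FPKM in first-set controls and at 22.9 and 25.6 FPKM in knockdown. Prim2 groups in the new set were alike in level, at 21.3, 25.2 and 22.6 FPKM in controls and at 26.0, 21.7 and 21.9 FPKM in knockdown, and the joined value was -0.35 ± 0.10 (adjusted p = 0.0212, and 0.252 when the z values of the sets were combined). Pola1 and Pole, the catalytic subunits of polymerases alpha and epsilon, had lower means in both sets, at 92.3% and 72.3% of control in the new set and at 66.2% and 77.4% in the first set, with overlapping groups throughout.

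Of the clamp and its loaders, Pcna and Rfc1 fell in the joined fit. Pcna, the ring that tethers polymerases to DNA, was at 174, 214 and 178 FPKM in new-set controls and at 167, 158 and 165 FPKM in knockdown. Pcna in the first set was at 226 and 225 FPKM in controls and at 175 and 172 FPKM in knockdown. The groups were apart in both sets, at 86.8% and 77.1% of control, with a joined log2 fold change of -0.29 ± 0.09 (adjusted p = 0.0287, and 0.0833 when the z values of the sets were combined). Rfc1, the large subunit of the loader that opens the clamp, was at 12.2, 11.2 and 13.5 FPKM in new-set controls and at 9.60, 10.3 and 9.95 FPKM in knockdown. Rfc1 in the first set was at 19.6 and 17.9 FPKM in controls and at 9.61 and 8.80 FPKM in knockdown, or 49.1% of control (log2 fold change -0.95 ± 0.23, adjusted p = 0.0254). The joined value was -0.61 ± 0.10 (adjusted p = 0.00162).

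The small loader subunits Rfc2 to Rfc5 did not pass in either set or in the joined fit, although with the replicate block Rfc2 passed in the joined fit (adjusted p = 0.0445). Rfc2, Rfc3, Rfc4 and Rfc5 in the new set were at 99.4%, 93.4%, 102% and 98.3% of control. The first-set ratios were 73.6%, 91.1%, 75.8% and 138%, with both knockdown values below the controls for Rfc2, Rfc3 and Rfc4, as for Rfc1, and above them for Rfc5. Dscc1, a subunit of the alternative loader that acts in cohesion, was at 72.6% of control in the new set (adjusted p = 0.112, and 0.0468 with the replicate block) and at 106% in the first set.

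Rpa1 and Rpa2, subunits of the complex that coats single-stranded DNA at the fork, fell in the first set and in the joined fit. Rpa1 was at 89.3 and 78.8 FPKM in first-set controls and at 22.6 and 42.3 FPKM in knockdown, or 38.6% of control, the largest first-set fall among the 39 genes (-1.41 ± 0.30, adjusted p = 0.0183). Rpa1 in the new set was at 31.9, 32.1 and 33.0 FPKM in controls and at 30.3, 27.3 and 24.0 FPKM in knockdown, without overlap, and the joined value was -0.83 ± 0.15 (adjusted p = 0.00290). Rpa2 was at 55.8 and 48.8 FPKM in first-set controls and at 31.1 and 28.2 FPKM in knockdown (-0.80 ± 0.21, adjusted p = 0.0326). Rpa2 in the new set was at 44.0, 51.9 and 50.2 FPKM in controls and at 44.6, 40.7 and 41.8 FPKM in knockdown, where 1 knockdown library lay within the controls, and the joined value was -0.50 ± 0.09 (adjusted p = 0.00283). Rpa3 was at 93.1% of control in the new set and at 76.8% in the first set and did not pass.

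Both genes of Okazaki fragment maturation fell in the first set and in the joined fit. Fen1, the nuclease that trims the displaced flap, was at 103 and 101 FPKM in first-set controls and at 43.8 and 50.1 FPKM in knockdown, or 46.1% of control (-1.105 ± 0.20, adjusted p = 0.00896). Fen1 in the new set was at 52.3, 53.6 and 50.4 FPKM in controls and at 50.7, 41.8 and 45.8 FPKM in knockdown, and the joined value was -0.64 ± 0.09 (adjusted p = 0.000832). Lig1, the ligase that seals the fragments, was at 36.9 and 34.0 FPKM in first-set controls and at 14.8 and 16.3 FPKM in knockdown (-1.14 ± 0.21, adjusted p = 0.0106). Lig1 in the new set was at 18.9, 21.6 and 24.9 FPKM in controls and at 17.1, 15.01 and 18.1 FPKM in knockdown, apart in every library (adjusted p = 0.0986, and 0.0454 with the replicate block). The joined value of Lig1 was -0.75 ± 0.10 (adjusted p = 0.000943).

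Nucleotide supply divided by gene. Rrm1 and Rrm2, which together form ribonucleotide reductase, fell in the first set and in the joined fit. Rrm1 was at 86.5 and 63.0 FPKM in first-set controls and at 22.4 and 35.4 FPKM in knockdown (-1.36 ± 0.28, adjusted p = 0.0164), while in the new set it was at 69.8, 68.3 and 68.8 FPKM in controls and at 69.7, 62.9 and 63.9 FPKM in knockdown. Its joined value was -0.72 ± 0.13 (adjusted p = 0.00303). Rrm2 was at 328 and 167 FPKM in first-set controls, which lie far apart, and at 89.5 and 106 FPKM in knockdown (-1.26 ± 0.32, adjusted p = 0.0320). Rrm2 in the new set was at 136, 146 and 165 FPKM in controls and at 133, 94.4 and 136 FPKM in knockdown, and the joined value was -0.78 ± 0.18 (adjusted p = 0.00776).

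Tyms, which makes thymidylate, was at 81.8% of control in the new set with overlapping groups and at 171% in the first set, where it was at 29.7 and 23.4 FPKM in controls and at 52.3 and 38.3 FPKM in knockdown (adjusted p = 0.0665). Dut, which keeps dUTP low, was at 96.1% and 122% of control. Ung, which removes uracil from DNA, had the lowest new-set ratio of the 39 genes, 60.3% of control, from 9.18, 9.36 and 10.5 FPKM in controls and 6.65, 2.75 and 8.14 FPKM in knockdown, and the wide knockdown spread left it outside the threshold (adjusted p = 0.138).

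Among the genes of chromatin assembly and maintenance Chaf1a, Chaf1b, Uhrf1 and Hells fell in the joined fit. Chaf1a, the large subunit of the histone chaperone CAF-1, was at 18.3, 13.6 and 19.9 FPKM in new-set controls and at 14.7, 12.3 and 14.6 FPKM in knockdown. Chaf1a in the first set was at 5.19 and 7.38 FPKM in controls and at 2.87 and 3.11 FPKM in knockdown, and the joined value was -0.57 ± 0.13 (adjusted p = 0.00979). Chaf1b, its partner, was at 42.0 and 36.4 FPKM in first-set controls and at 22.4 and 26.1 FPKM in knockdown. Chaf1b values in the new set were 28.0, 28.7 and 30.3 FPKM in controls and 30.1, 29.4 and 29.8 FPKM in knockdown, a span in which the groups overlap, and the joined value was -0.32 ± 0.09 (adjusted p = 0.0190). Chaf1b did not pass in the first set alone (adjusted p = 0.0608), and its joined call was lost on the common total (adjusted p = 0.0524) and when the z values of the sets were combined (adjusted p = 0.384).

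Uhrf1, which brings maintenance DNA methylation to newly copied DNA, was at 44.7 and 35.5 FPKM in first-set controls and at 16.2 and 22.2 FPKM in knockdown (-1.03 ± 0.25, adjusted p = 0.0261). Uhrf1 in the new set was at 46.2, 40.4 and 35.9 FPKM in controls and at 38.97, 29.4 and 33.2 FPKM in knockdown, and the joined value was -0.65 ± 0.13 (adjusted p = 0.00425). Hells, a remodeler needed for DNA methylation, was at 18.3, 18.6 and 19.4 FPKM in new-set controls and at 15.7, 12.4 and 14.97 FPKM in knockdown, without overlap (adjusted p = 0.0658, and 0.0389 with the replicate block). Hells in the first set was at 22.4 and 15.8 FPKM in controls and at 10.6 and 14.6 FPKM in knockdown, and the joined value was -0.46 ± 0.13 (adjusted p = 0.0196). Atad2, a chromatin ATPase, was at 82.1% and 64.8% of control in the new and the first set (joined adjusted p = 0.1002, and 0.0445 with the replicate block). Slbp was at 74.7% of control in the new set without overlap (adjusted p = 0.0570, and 0.0400 with the replicate block) and at 122% in the first set.

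Tipin and Usp1 of the fork protection group fell in the first set and in the joined fit. Tipin, a subunit of the complex that stabilises stalled forks, was at 77.6, 89.4 and 91.9 FPKM in new-set controls and at 66.1, 63.7 and 77.4 FPKM in knockdown. Tipin in the first set was at 115 and 104 FPKM in controls and at 63.0 and 72.3 FPKM in knockdown (-0.69 ± 0.20, adjusted p = 0.0460). All knockdown values were below all controls of their set, and the joined value was -0.50 ± 0.09 (adjusted p = 0.00365). Usp1, which removes ubiquitin from PCNA, was at 41.4, 40.4 and 42.0 FPKM in new-set controls and at 34.1, 30.5 and 37.2 FPKM in knockdown. Usp1 in the first set was at 16.6 and 17.5 FPKM in controls and at 6.88 and 7.31 FPKM in knockdown, or 41.7% of control (-1.15 ± 0.23, adjusted p = 0.0135). Usp1 had the smallest joined p of the 39 genes (-0.72 ± 0.09, adjusted p = 0.000508), and in the new set alone Tipin and Usp1 passed with the replicate block (adjusted p = 0.0337 and 0.0409). Clspn was at 72.6% and 69.4% of control in the new and the first set, without overlap in either, and did not pass (joined adjusted p = 0.0578, and 0.0305 with the replicate block).

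Whether the sets differ was tested as the new-set minus the first-set log2 fold change. This contrast is from the joined fit, with a variance shared between the sets, and its false calls were not simulated. The difference passed for 13 of the 39 genes, a share near the 32.5% of all genes tested. With each set weighted by its own spread, 23.8% of all genes differed. For 11 of them (Chaf1b, Fen1, Lig1, Prim1, Prim2, Rfc1, Rpa1, Rpa2, Rrm1, Uhrf1 and Usp1) the first-set fold change was the lower one, as for 22.5% of all genes. For Pola2 and Tyms the new-set fold change was the lower one, as for 9.98% of all genes. The sign of the mean was the same in both sets for 26 genes, lower for 25 and higher for Gins4. It was opposite for 13: Dscc1, Dut, Gins3, Orc1, Pola2, Rfc5, Slbp, Tyms and Ung were lower in the new set but higher in the first, and Chaf1b, Orc6, Prim2 and Rfc4 the reverse, with new-set means at 101% to 103% of control. On the common total 7 genes differed, where 21.8% of all genes did. Of these 5 had the lower fold change in the new set (Orc1, Pola2, Rfc5, Slbp and Tyms), as 14.6% of all genes did, and 2 had the lower in the first set (Fen1 and Rrm1), as 7.22% did. Fen1, Pola2, Rrm1 and Tyms differed in every alternative run. Since shRNA, batch, table and the background of the first-set knockdown libraries change together, what the sets differ by cannot be told apart.

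**Figure D3:**
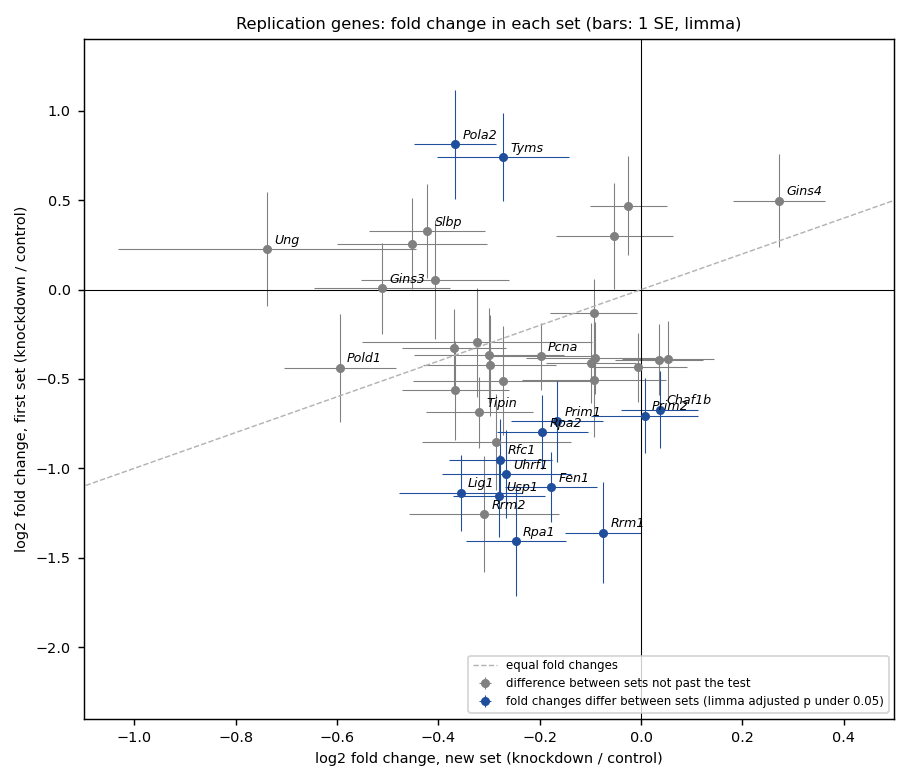
Log2 fold change (knockdown against control, on log2(FPKM + 1)) of each replication gene, new set on the x axis and first set on the y axis, with bars of 1 SE. Filled dark points mark the 13 genes whose fold changes differ between the sets, and the dashed line marks equal fold changes. Most genes lie at the lower left, Pola2 and Tyms lie at the upper left, and Gins4 alone lies at the upper right.

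Other genes of the pathway were counted in the same fits. Of 50 further replication genes in the tables (49 tested in the first set), 6 fell and none rose in the new set, 14 fell and none rose in the first, and 26 fell and 2 rose in the joined fit, with medians of -0.18, -0.54 and -0.36. In the new set 44 did not pass and 14 had a higher mean in knockdown, and in the joined fit 21 did not pass and Pold4 and Pole4, small subunits of polymerases delta and epsilon, rose. With the replicate block 14 of them fell in the new set. Asf1b, a histone chaperone, was at 71.6% (new set) and 42.2% (first set) of control (joined adjusted p = 0.00105), and Cdc7, the kinase that fires origins, was at 62.1% and 44.4% (joined adjusted p = 0.00115). Ssrp1 and Supt16h, which form the FACT histone chaperone, were at 79.6% and 99.7% of control in the new set and at 58.9% and 47.1% in the first set. Of 11 MCM and licensing genes 3 fell in the new set (8 with the block), 5 in the first and 10 in the joined fit, and none rose. Mcm3, a subunit of the helicase ring, was at 65.8% and 41.0% of control.

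Of 50 genes of G2/M and mitosis 6 fell in the new set (20 with the block), 35 in the first set and 44 in the joined fit, and none rose in any of the 3. Their medians were -0.37, -0.88 and -0.67, below those of the replication genes in each fit, and the difference between the lists was not tested. Kif20a, a kinesin of cytokinesis, was at 77.6% (new set) and 21.2% (first set) of control (joined adjusted p = 0.000208). Ccnb1, the mitotic cyclin, was at 86.1% and 31.7% (joined adjusted p = 0.000432). The counts of these lists stand beside the same shares of all genes as for the replication genes, 5.15% lower for the new set, 10.7% for the first set and 20.5% for the joined fit. The counts with the block stand beside 10.7% lower and 11% higher of all genes in that new-set fit. In the joined fit 9.37% of all genes rose.

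**Figure D4:**
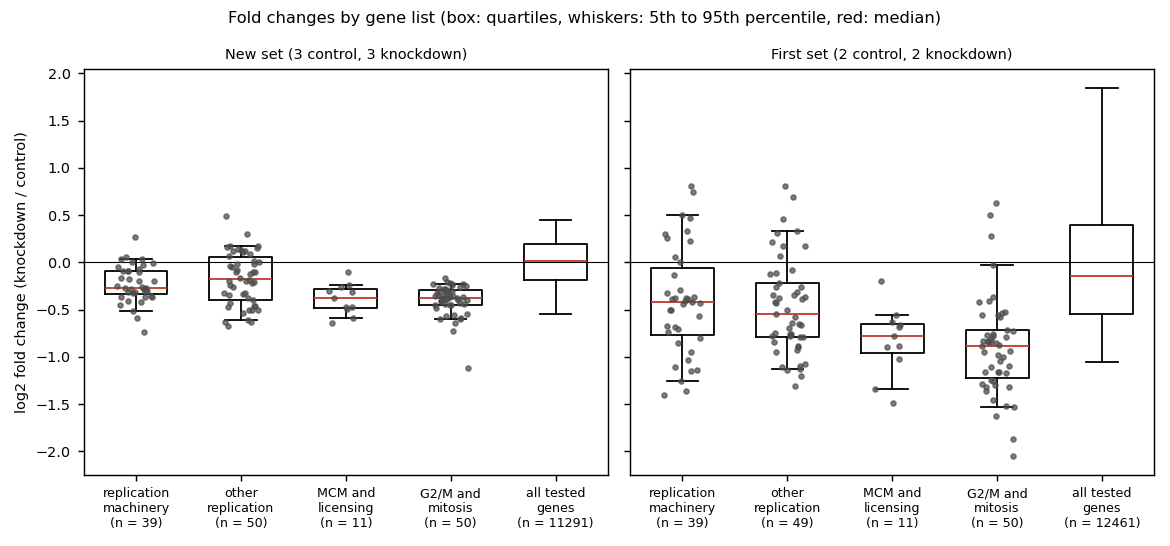
Log2 fold changes in the new set (left) and the first set (right) for the 39 replication genes, the other replication genes, the MCM and licensing genes, the G2/M and mitosis genes and all tested genes. Boxes show quartiles, whiskers the 5th to 95th percentile, red lines medians and points single genes. The median of the replication genes is -0.27 on the left and -0.42 on the right.

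Markers of the cell types in the sort moved with the same contrasts. Over all tested genes 5.15% fell and 3.84% rose in the new set, and 10.7% fell and 13.2% rose in the first. Of 20 radial glia markers 10 fell in the new set against 3 in the first, the latter a share near that of all genes. Their summed level ran from 1560 to 2022 FPKM in new-set controls and from 1244 to 1843 FPKM in knockdown, and from 1946 to 2019 FPKM in first-set controls and from 1119 to 2307 FPKM in knockdown. Fabp7 made up a large part of these sums, at 592 to 1105 FPKM in the new set and 770 to 1830 FPKM in the first. It passed in neither set, so the sums do not stand for the other markers. Of 11 intermediate progenitor markers 5 fell in the new set, and 3 fell and 2 rose in the first set. Their sums were 1040 to 1206 FPKM in controls and 745 to 822 FPKM in knockdown of the new set, and 772 to 829 FPKM and 708 to 1127 FPKM in the first set. Gadd45g alone gave 582 FPKM of the sum of 1127 FPKM. Of 19 neuron markers, chosen for postmitotic cortical neurons, 9 rose and none fell in the new set, where their sum was 2784 to 3248 FPKM in controls and 3919 to 4824 FPKM in knockdown. The first set had 7 of the 19 lower and none higher, with sums of 5108 to 5580 FPKM in controls and 3480 to 3832 FPKM in knockdown. So the replication genes were lower on median in both sets while the neuron markers went opposite ways, and the part of the cell types in either result was not tested.

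Markers of cell types outside the electroporated lineage were summed in the same way, and their calls stand beside the same shares of all tested genes. No marker of these lists was listed at 0 in all 10 libraries. All 5 tested markers of GABAergic interneurons (of 10) fell in the new set, from sums of 18.7 to 27.7 FPKM in controls to 9.20 to 9.39 FPKM in knockdown, and 2 of 5 tested erythroid markers fell, from 150 to 280 FPKM to 23.6 to 115 FPKM. The hemoglobin gene Hba-a2 alone was at 160, 196 and 53.1 FPKM in the 3 controls. None of 8 interneuron markers and neither of 2 erythroid markers tested passed in the first set. Of 7 tested microglia markers 5 rose in the first set, from sums of 2.08 and 6.62 FPKM to 16.5 and 31.3 FPKM, and none of 4 passed in the new set. Endothelial markers summed to at most 2.91 FPKM in the new set and 16.5 FPKM in the first, oligodendrocyte precursor markers to at most 1.97 FPKM in any library, and meninges and choroid plexus markers to at most 4.07 FPKM except 46.3 FPKM in new-set knockdown replicate 10. Ttr alone gave 42.9 FPKM of that sum. Immediate early genes, which respond to stimulation and to cell dissociation, rose for 12 of 12 in the first set, from sums of 40.0 and 40.1 FPKM to 391 and 339 FPKM. Of 7 tested in the new set 2 fell, from 174 to 202 FPKM to 133 to 145 FPKM. Their part in the replication gene results was not tested.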

How the data were processed

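The authors deposited FPKM values (fragments per transcript length and mapped reads), 1 column per library, in 2 tables made separately. Per the labels' protocols, RNA extraction used an RNeasy Plus kit and library preparation a low-input kit from Clontech. Tools named in the submitters' processing notes are TopHat2, Bowtie, Cufflinks 2.0.0, Cuffdiff and the build mm9. The sources used here do not give the annotation, strand handling or further normalization. The design text calls the replicates separate pools of embryos.

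From these values log2(FPKM + 1) was computed, and genes averaging 1 FPKM or more per table were kept. limma 3.58.1 under R 4.3.3 was fitted per set and over both (trend, two-sided, Benjamini-Hochberg over all genes tested, threshold 0.05). Residual degrees of freedom were 4 for the new set, 2 for the first set and 6 for the joined fit. Fold changes on this scale understate changes of low genes. Scripts were tested on simulated data, where the joined fit and, to a lesser degree, the combined z values made more false calls than the threshold states. Of 100 genes with a simulated log2 change of -0.5, the new-set fit called 34%, the first-set fit 0% and the joined fit 63%. For a change of -1 the shares were 83%, 0% and 93%. Only these genes changed in the simulation, all of them lower. The real fits called far more, 8.99% of all genes in the new set, 23.8% in the first and 29.9% joined. The threshold depends on that share, so the simulated rates hold for the simulated setting only. The members and gene lists were chosen with earlier results of these data known. Replication genes past the threshold in the main fit of a set or in the main joined fit have a value per library in the text. The others are given mostly by percent of control or range, and some also per library. Of other lists at most the 4 genes with the smallest joined p are named. Some further values were named after they were seen.

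In the new set, deviations from the group means correlated across genes at 0.122, 0.242 and 0.193 for libraries of the same replicate number. For different numbers the values were -0.162 to -0.0133. Deviations within a group cancel out, so positive values for the same number force lower ones for the others. The contrast between them is therefore no separate evidence of pairing. The number was used as a block only in an alternative, and the main fits held no pairing. The labels do not say what a number stands for. Promoter windows are from RefSeq on GRCm38.p6, and no coordinate of the files' build was used.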

Additional observations from a re-analysis of the deposited data

Results flagged for a closer look

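For 13 replication genes the log2 fold changes of the sets (new minus first) differed in the joined limma fit, after adjustment over all 10827 genes tested. The share, 13 of 39, is near the 32.5% of all genes that differed. That fit shares a variance between the sets, and false calls of this contrast were not simulated. These were flagged because the same contrast gave different sizes or directions in the 2 sets. For Pola2 the difference was -1.18 ± 0.26 (SE, adjusted p = 0.00653), with knockdown below every control in the new set and above both in the first set. For Tyms it was -1.01 ± 0.26 (adjusted p = 0.0122), also with opposite means. For Rrm1 the difference was 1.29 ± 0.26 (adjusted p = 0.00452), for Rpa1 1.16 ± 0.30 (adjusted p = 0.0132) and for Fen1 0.927 ± 0.17 (adjusted p = 0.00311), with the lower fold change in the first set. In the same direction it was 0.875 for Usp1, 0.782 for Lig1, 0.766 for Uhrf1, 0.712 for Prim2, 0.707 for Chaf1b, 0.675 for Rfc1, 0.603 for Rpa2 and 0.571 for Prim1, with adjusted p values from 0.00445 (Usp1) to 0.0491 (Prim1). Over all genes tested the median of this difference was 0.234, and it was -0.0608 after rescaling to a common total. On that scale Fen1, Pola2, Rrm1 and Tyms still differed, Chaf1b, Lig1, Prim1, Prim2, Rfc1, Rpa1, Rpa2, Uhrf1 and Usp1 did not pass, and Orc1, Rfc5 and Slbp were added, where 21.8% of all genes differed. The shRNA, the batch, the table and the background of the first-set knockdown libraries cannot be told apart in these differences. Groups of 2 or 3 libraries were not tested for a library far from the others.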

How the results depend on the processing

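In the joined fit, the count of 18 lower calls and 1 higher call among the replication genes stayed within 1.5 times 19 in every alternative. With 1 new-set library left out, 14.9% to 20.6% of all genes fell in that fit, against 20.5% with every library. The share moved both up and down when 1 first-set library was left out, which leaves a group with a single library. Leaving out 1 library changed the fits of single sets most, and in the new set 0.584% to 7.37% of all tested genes then fell. The replication genes past the threshold then numbered 0 to 5 (new set) and 0 to 2 (first set), the other replication genes 0 to 9 and 0 to 1, the MCM and licensing genes 0 to 3 and 0 to 2, and the G2/M and mitosis genes 1 to 7 and 3 to 9. The medians of the replication genes ran from -0.29 to -0.17 and from -0.57 to -0.31. In these fits a group of 2 loses 1 library and its lone library is assumed to vary like the others. Rescaling to a common total gave 9 replication genes for the new set, 5 for the first and 7 that differed between sets, with medians of -0.39 and -0.24 and 27 genes that did not overlap in the new set (26 lower and 1 higher, where 26.2% of all genes were lower and 9.36% higher). It gave 12 and 3 other replication genes, 11 and 18 G2/M genes in the new and the first set, and 1 MCM gene in the first set. The share of changed genes that rose over all genes went from 42.8% to 18.9% for the new set and from 55.2% to 83% for the first. Without the filter on low values there were 4 replication genes, 3 other replication genes, 0 MCM genes and 17 G2/M genes in the first set, and 1 MCM gene and 2 G2/M genes in the new set. Of all tested genes 2.03% fell there in the first set and 1.79% in the new set. Median-of-ratios rescaling gave 9 other replication genes and 3 MCM genes in the first set, and a fit without the variance trend gave 9 other replication genes there. Of all tested genes 8.52% fell with that rescaling and 9.54% without the trend. The replicate block gave 11 replication genes, 14 other replication genes, 8 MCM genes and 20 G2/M genes in the new set, where 10.7% of all tested genes fell and 11% rose. First-set replicate numbers did not pair the libraries (correlation -0.0285), and the block gave 9 replication genes and 2 MCM genes, where 9.1% of all tested genes fell. The causes of these moves were not tested. Pseudocounts of 0.1 and 0.5 and a minimum of 5 FPKM moved no count of a list by more than 1.5 times, although the minimum brought the first-set median of all genes to -0.291, against -0.435 for the replication genes. Joining the sets by signed z or with set weights was chosen after seeing the data and gave 16 and 18 replication genes. Of all tested genes 13% and 22% changed in those fits, and 8.44% and 15% fell. A search of protein motifs was not run. With 2 or 3 libraries a group and unknown depth, a gene that did not pass is not shown to be unchanged.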
